A study of Mus musculus with 6 samples.

Results

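The endoplasmic reticulum (ER) folding and unfolded protein response genes form a set of 40 listed genes, taken by gene symbol. They encode ER chaperones, disulfide isomerases, stress sensors, degradation factors and the translocon. The list was drawn up with earlier results of these data known. All probes whose platform annotation named a member were taken, which gave 76 probes for 39 of the 40 genes, out of 45281 probes and 19057 genes on the array. The other member was not analysed here. RNA was compared on Illumina bead arrays, which read a transcript as the brightness of a matching probe, between 3 liver tumours and the liver tissue next to each of them.

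All mice, of strain C57BL/6J, had been injected into a temporal vein on the day after birth with 3e10 particles of AAV-Rian-CMV, an adeno-associated virus vector, and tissue was taken at the age of 6 months. By the sample titles, the tumours and adjacent livers came in pairs from the 3 animals 1293, 1309 and 1316. For the tumour of animal 1316 another label gives a different animal number, and the title was followed. The adjacent livers had received the vector too and lay beside a tumour, and no liver of an uninjected animal was among the arrays.

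The ER takes in nearly all secreted proteins, and the hepatocyte, which makes most plasma proteins, is rich in it. Proteins enter through the translocon, are folded by chaperones and disulfide isomerases, and are sent back to the cytosol for destruction by ER-associated degradation if they fail to fold. When unfolded proteins accumulate, the sensors ATF6, IRE1 (gene Ern1) and PERK (gene Eif2ak3) start the unfolded protein response, in which ATF6 and the spliced form of XBP1 raise the transcription of folding and degradation genes, while PERK slows translation and acts through the transcription factor ATF4.

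The 6 arrays had median raw signals of 138 to 160, and between 29.3% and 31.8% of their probes exceeded an estimated background. Of the 39 genes, 33 were above background on at least 3 arrays and 31 on all 6, each read from its probe with the highest mean signal. Hepatocyte markers were strong on every array, with log2 signals of at least 15.51 for transthyretin (Ttr) and 14.19 for the urea cycle enzyme gene Cps1. The Alb probe was dim, at 6.57 to 7.79, and the Tat probe was below background throughout. The number of arrays, 3 per group, limits the precision of every value. In tissue samples such as these, fewer cells of a type and less RNA per cell cannot be told apart.

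Promoters were examined for the sequence elements through which ATF6 and XBP1 are known to act. The set was listed as genes of this response, so a high share of these elements among its members is not an independent result. RefSeq promoters, from 250 bases before to 50 after the start, were at hand for 33 of the 39 genes. Both strands were searched for the ER stress response element ERSE, which is CCAAT and CCACG separated by any 9 bases, for ERSE-II, which is ATTGG and CCACG separated by any 1 base, and for the unfolded protein response element UPRE, TGACGTGG. A UPRE read on its other strand begins with the same CCACG, so the motifs can overlap. An ERSE was found for 9 of the 33 genes, in 26.5% of their promoters against 0.119% of all 32851 promoters in the table. Herpud1 alone held an ERSE-II, which 0.0365% of all promoters hold, and 0 of the 33 genes held the UPRE, found in 0.676% of all promoters. The 10 ERSE sites began at positions −212 to −44 relative to the start, and 6 of them lay on the strand of the gene. They are shown because they mark which members carry the element through which the response is known to act. Each is written in the direction of the motif, with the CCAAT and CCACG parts in capitals and the spacer in lower case (build GRCm38.p6).
Hspa5, chr2:34772025-34772043, plus strand: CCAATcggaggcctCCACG
Hsp90b1, chr10:86705638-86705656, minus strand: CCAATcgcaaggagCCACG
Hsp90b1, chr10:86705533-86705551, plus strand: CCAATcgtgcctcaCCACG
Calr, chr8:84847075-84847093, plus strand: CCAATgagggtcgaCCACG
Canx, chr11:50325800-50325818, minus strand: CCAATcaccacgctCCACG
Creld2, chr15:88819520-88819538, minus strand: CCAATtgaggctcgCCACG
Dnajc3, chr14:118937827-118937845, plus strand: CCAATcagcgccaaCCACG
Pdia6, chr12:17266491-17266509, plus strand: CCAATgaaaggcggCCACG
Syvn1, chr19:6046532-6046550, plus strand: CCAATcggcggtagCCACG
Derl3, chr10:75893242-75893260, minus strand: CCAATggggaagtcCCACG

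The 9-base spacers held 6 or 7 G or C bases in all 10 sites. Hspa5 encodes BiP, the main ER chaperone of the Hsp70 family, and Herpud1 a membrane protein of the degradation machinery. Their promoters are given whole, because the first is the reference target of the response and the second belongs to the gene with the lowest fitted difference. Capitals mark the ERSE in Hspa5 and the ERSE-II in Herpud1.
Hspa5, chr2:34771840-34772139, plus strand: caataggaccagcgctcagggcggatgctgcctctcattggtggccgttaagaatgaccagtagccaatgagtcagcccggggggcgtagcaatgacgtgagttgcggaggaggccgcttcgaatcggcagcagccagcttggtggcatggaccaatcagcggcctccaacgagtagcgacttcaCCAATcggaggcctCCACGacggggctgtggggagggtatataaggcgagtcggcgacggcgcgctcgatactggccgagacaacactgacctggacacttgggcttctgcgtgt
Herpud1, chr8:94386179-94386478, plus strand: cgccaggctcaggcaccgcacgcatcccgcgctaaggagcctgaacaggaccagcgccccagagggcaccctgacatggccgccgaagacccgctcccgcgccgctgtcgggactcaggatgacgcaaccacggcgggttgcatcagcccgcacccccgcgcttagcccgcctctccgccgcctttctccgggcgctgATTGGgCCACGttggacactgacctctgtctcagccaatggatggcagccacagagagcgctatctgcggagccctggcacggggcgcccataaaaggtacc

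A match is a description of letters, not evidence that a factor is bound. The 10 genes with an ERSE or ERSE-II had a median log2 difference between tumour and adjacent liver of −0.12, from −0.96 to 0.14. The 23 genes in the promoter table without one had a median of −0.30, from −0.70 to 0.42. The ranges overlap, and the difference was not tested.

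The comparison of tumour with adjacent liver asked whether transcripts of ER folding and of the unfolded protein response differ in tumours. Not 1 of the 39 genes passed on its brightest probe, in either direction (adjusted p of 0.05 over all 45281 probes, limma). Most fitted differences were small and negative. Over all genes, 3.64% passed as higher in tumours and 1.56% as lower, and of the 8305 genes above background on at least 3 arrays 7.93% passed as higher and 3.50% as lower. An unadjusted p under 0.05 was found for 13 of the 39 genes, 2 of them higher and 11 lower in tumours, and for 3644 of all genes. Among genes above background on at least 3 arrays this share was 33.3% of the 33 members and 35.8% of all.

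The median log2 difference was −0.18 for the 39 genes and −0.01 for all genes. Fitted differences were negative for 29 of the 39 genes, or 74.4%, and for 52.0% of all genes. This count depended on single arrays, being 22 without the adjacent liver of animal 1293 and 33 without that of animal 1316. In the main analysis the differences ranged from −0.96 for Herpud1 to 0.42 for Ppp1r15a, whereas all genes ranged from −2.80 to 6.24. For 33 of the 39 genes the 95% interval of the difference, not adjusted for the number of genes, lay within a 2-fold change either way. The same held for 17649 of all 19057 genes. Among genes above background on at least 3 arrays it held for 27 of the 33 members and 6941 of all 8305. The 6 exceptions were Herpud1, Sdf2l1, Pdia5, Sec61b, Creld2 and Pdia6, whose intervals reached beyond a 2-fold decrease. The median differences within animals were −0.38 in animal 1293, −0.15 in animal 1309 and −0.03 in animal 1316, where 34, 31 and 22 of the 39 genes were lower in the tumour.

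**Figure D1:**
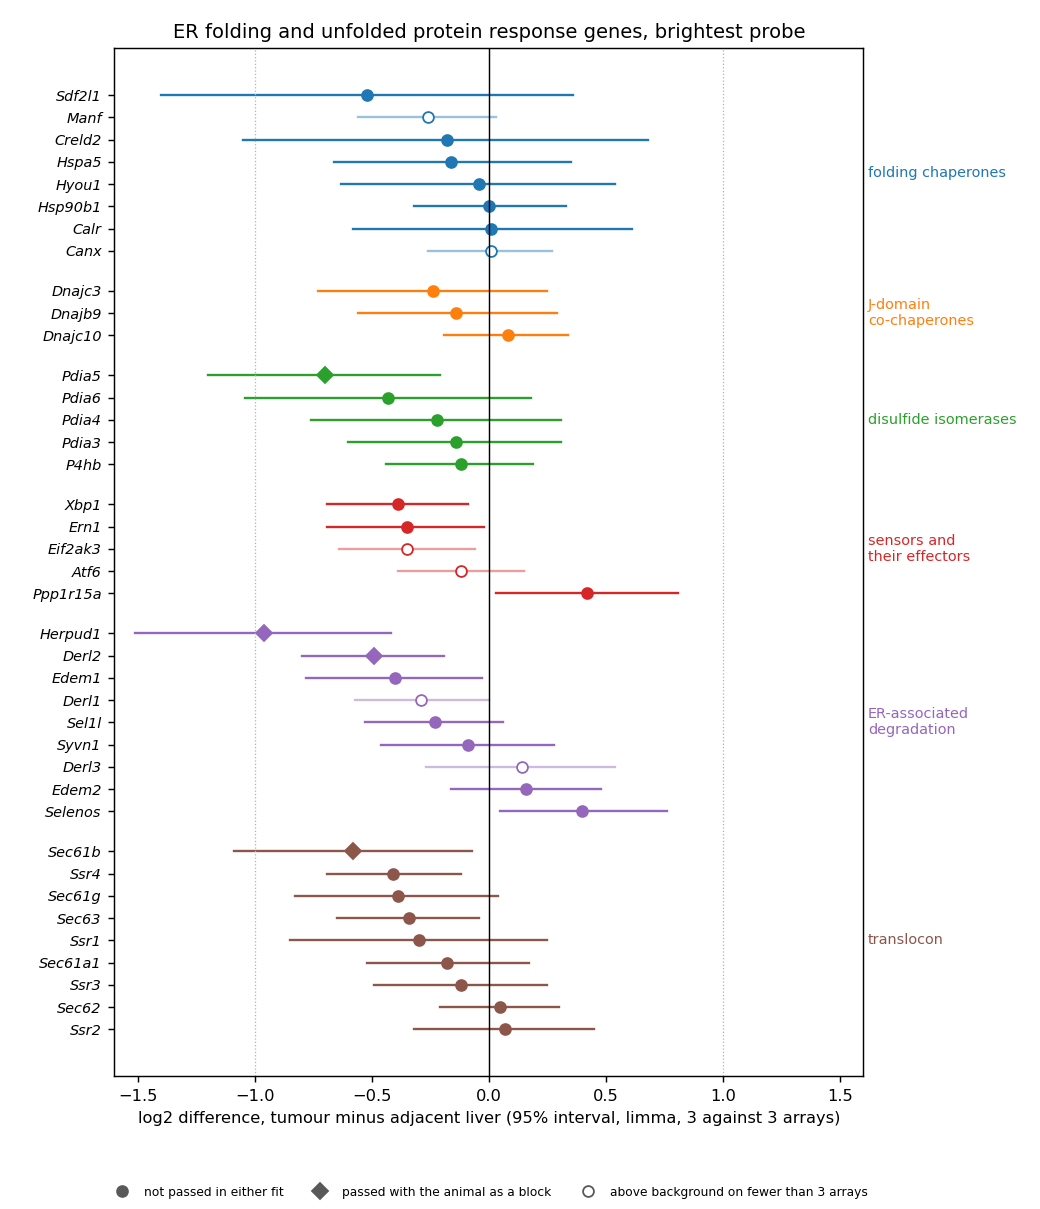
Log2 difference between tumours and adjacent liver (x axis) for 39 ER genes by role, with 95% intervals from limma over 3 tumour and 3 adjacent arrays; dotted lines mark a 2-fold change. Diamonds mark the 4 genes that passed with the animal as a block, and open circles the 6 genes above background on fewer than 3 arrays. Most points lie left of 0, and 33 of 39 intervals stay between the dotted lines.

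With the animal as a block, a fit that compares each tumour with its own adjacent liver, 4 of the 39 genes were lower in tumours and 0 higher. These were Herpud1, Derl2, Pdia5 and Sec61b. With the animal as a random block, which estimates the correlation within animals, Herpud1 alone passed (adjusted p = 0.0485, limma), and Derl2, Pdia5 and Sec61b did not (adjusted p = 0.0637, 0.103 and 0.213). The random block called 1.98% of all genes lower and 3.99% higher. The fit that compares each tumour with its own adjacent liver called 3.11% of all genes lower and 4.55% higher. Among genes above background on at least 3 arrays it called 7.00% lower, where the 4 genes are 12.1% of 33. Counted by probe without the block, 2 of 76 passed as lower, 1 each of Herpud1 and Derl2, and 0 as higher, against 1.15% and 2.30% of all probes. With the block 8 of the 76 probes were lower, against 1023 of all 45281 probes. Those 8 belong to Herpud1, Derl2, Pdia5, Pdia6 and Sec61b, so some read the same gene. Above background on at least 3 arrays were 50 of the 76 probes but 14045 of all 45281, so the 2 shares are not of like probes. Without the tumour of animal 1309, and with no block, 3 genes and 7 probes were called lower, the genes being Herpud1, Derl2 and Pdia5. Without the tumour of animal 1293, or without both arrays of animal 1316, 0 genes and 0 probes were called, and the 2 probes became 1 without the adjacent liver of 1293, that of 1309 or the tumour of 1316.

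In 8 of the 39 genes all 3 tumours read below all 3 adjacent livers, and in 0 all read above. The shares over all genes were 11.0% and 11.6%, and among genes above background on at least 3 arrays 17.3% and 18.6%, where 5 of the 33 members read below. The 8 genes were Herpud1, Derl2, Derl1, Xbp1, Ern1, Eif2ak3, Ssr4 and Manf. Derl1 and Manf were below background on all 6 arrays.

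The folding chaperones had a median log2 difference of −0.10 between the tissues, from −0.52 to 0.01. Of 8 measured, 0 passed in either fit and 0 had an unadjusted p under 0.05. Hspa5 (BiP) read log2 signals of 7.94, 7.30 and 6.86 in the adjacent livers of animals 1293, 1309 and 1316, and 7.41, 7.28 and 6.93 in their tumours. The values of the 2 tissues overlapped, and the fitted difference was −0.16 (SE 0.23, adjusted p = 0.854, limma, 95% interval −0.66 to 0.35). The Hspa5 probe lay near background, above it on 2 of 3 adjacent and all 3 tumour arrays.

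Hsp90b1 (GRP94), the Hsp90 of the ER, read 12.76, 12.95 and 12.49 in adjacent livers and 12.88, 12.74 and 12.59 in tumours. Its difference of 0.00 (SE 0.15) had an interval of −0.32 to 0.33. Calr, calreticulin, a lectin chaperone of glycoproteins, differed by 0.01 (SE 0.27), and Hyou1 (GRP170), which exchanges nucleotide on BiP, by −0.04 (SE 0.27). Canx, the membrane-bound partner of calreticulin, and Manf, a small secreted stress-induced protein, had probes below background on every array, so no fold can be read for them. Creld2, a disulfide isomerase-like protein induced by ER stress, read 0.18 lower on 1 probe and 0.22 lower on the other, and Sdf2l1, a partner of BiP complexes, read 0.52 lower (SE 0.40, adjusted p = 0.662, limma). With the block the adjusted p of Sdf2l1 was 0.0523.

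The J-domain co-chaperones guide substrates to BiP and drive its ATPase. Of 3 measured, 0 passed in either fit. Dnajc3 (P58IPK) differed by −0.24 (SE 0.22), Dnajb9 (ERdj4) by −0.14 and −0.13 on its 2 probes, and Dnajc10 (ERdj5), which also reduces disulfides, by 0.08 (SE 0.12). Tumours and adjacent livers overlapped in all 3 genes.

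The disulfide isomerases, which form and reshuffle the disulfide bonds of secreted proteins, all had negative fitted differences, from −0.70 for Pdia5 to −0.12 for P4hb, the classical protein disulfide isomerase. Of 5 measured, 0 passed without the block and 1, Pdia5, with it. Pdia5 read 11.21, 11.45 and 10.65 in the adjacent livers of animals 1293, 1309 and 1316, and 10.41, 10.80 and 9.98 in their tumours. The tissues overlapped across animals, since the adjacent liver of 1316 read below the tumour of 1309, but each tumour was lower than its own adjacent liver, with log2 differences of −0.80, −0.65 and −0.66. The fitted difference of −0.70 (SE 0.23) did not pass without the block (adjusted p = 0.139, limma) and passed with it (adjusted p = 0.00828). A second Pdia5 probe gave −0.79 (adjusted p = 0.0542, and 0.00537 with the block), with all tumours below all adjacent livers. The remaining probe, dimmer and above background on 2 arrays of each tissue, gave −0.10.

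Pdia6, another isomerase, differed by −0.43 on its brightest probe (SE 0.28, adjusted p = 0.577, limma). Its other probe gave −0.63 (SE 0.17), with an adjusted p = 0.0661 without and 0.0178 with the block, and all tumours below all adjacent livers. Pdia4 differed by −0.22 (SE 0.24) and Pdia3 (ERp57), which works with calnexin and calreticulin, by −0.14 (SE 0.21). Both overlapped between the tissues.

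Of the 5 sensors and their effectors, 0 passed in either fit, while 4 had an unadjusted p under 0.05. Xbp1, the transcription factor that IRE1 activates by splicing its RNA, read 13.19, 13.08 and 13.50 in adjacent livers and 12.81, 12.93 and 12.86 in tumours. All tumours lay below all adjacent livers, and the difference was −0.39 (SE 0.14, adjusted p = 0.185, limma, interval −0.69 to −0.09). Over 17 alternative settings it ranged from −0.47 to −0.26 and passed in 0. Xbp1 had 1 probe, and spliced and unspliced forms were not told apart here.

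Ern1 (IRE1) read 9.44, 9.43 and 9.82 in adjacent livers and 8.99, 9.39 and 9.26 in tumours. All tumours lay below all adjacent livers, with a difference of −0.04 within animal 1309, and the difference was −0.35 (SE 0.15, adjusted p = 0.309, limma). Its other 2 probes were below background. Eif2ak3 (PERK) read 6.83, 7.00 and 6.93 in adjacent livers and 6.50, 6.77 and 6.45 in tumours. It was above background on 2 adjacent arrays and on 0 tumour arrays, at least 1.04-fold lower in tumours, and did not pass (adjusted p = 0.223, limma). Atf6 read 6.82, 6.74 and 6.78 in adjacent livers and 6.78, 6.67 and 6.54 in tumours on its brighter probe. Both of its probes were below background on every array.

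Ppp1r15a (GADD34), which restores translation by directing a phosphatase to eIF2α and is itself induced by ATF4, had the highest fitted difference of the set. It read 7.78, 7.95 and 8.41 in adjacent livers and 8.44, 8.23 and 8.73 in tumours. Each tumour was above its own adjacent liver, but the tissues overlapped across animals. The difference was 0.42 (SE 0.18, adjusted p = 0.300, limma, and 0.124 with the block).

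**Figure D2:**
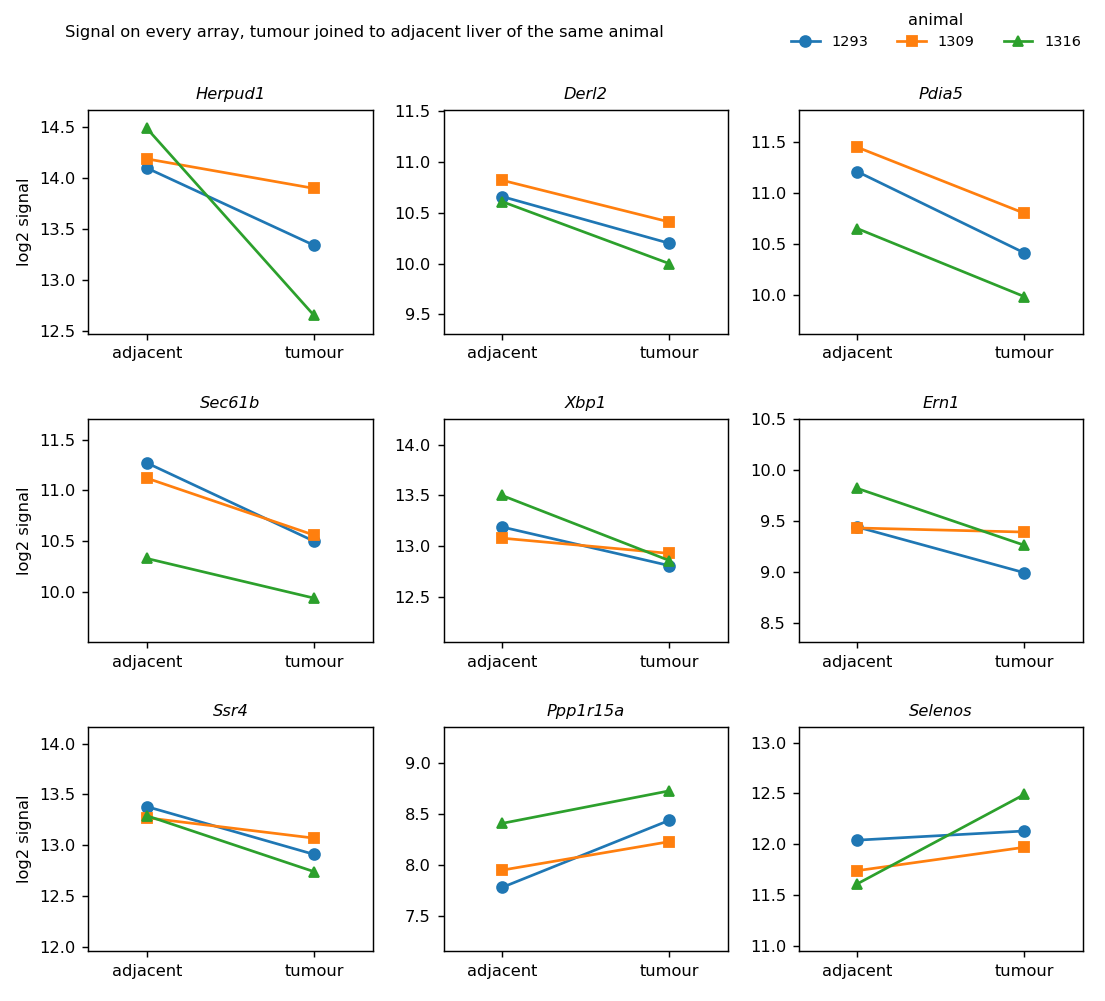
Log2 signal (y axes, each spanning 2.2 log2 units) of 9 ER genes in adjacent liver and tumour, with a line joining the arrays of each animal. Lines fall in all 3 animals for Herpud1, Derl2, Pdia5, Sec61b, Xbp1, Ern1 and Ssr4, steepest for Herpud1 in animal 1316, and rise for Ppp1r15a and Selenos.

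The genes of ER-associated degradation held the lowest difference and the second highest. Of 9 measured, 0 passed without the block and 2, Herpud1 and Derl2, were lower with it. Herpud1, which brings ubiquitin ligase complexes together at the ER membrane, read 14.10, 14.19 and 14.49 in adjacent livers and 13.34, 13.90 and 12.65 in tumours. All tumours lay below all adjacent livers, by unequal amounts, with log2 differences of −0.76 in animal 1293, −0.29 in animal 1309 and −1.84 in animal 1316. Adjacent liver of 1316 had the highest signal and its tumour the lowest. The fitted difference was −0.96 (SE 0.25, adjusted p = 0.0590, limma, and 0.0358 with the block). The second probe gave −1.19 (SE 0.29) and passed in both fits (adjusted p = 0.0456 and 0.0213).

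Over the 17 alternative settings the difference of Herpud1 on its brightest probe lay between −1.27 and −0.53. It passed in 4 of them, with adjusted p from 0.00279 without the tumour of animal 1309 to 0.347.

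Derl2, a derlin of the channel through which misfolded proteins leave the ER, read 10.66, 10.82 and 10.61 in adjacent livers and 10.20, 10.41 and 10.00 in tumours. Each tumour lay below every adjacent liver, and the difference was −0.49 (SE 0.14, adjusted p = 0.0830, limma, and 0.0490 with the block). A second probe read 10.38, 10.38 and 10.29 in adjacent livers and 9.56, 9.82 and 9.50 in tumours, a difference of −0.72 (SE 0.13, adjusted p = 0.00933, limma, and 0.00834 with the block). Without the block this was the lowest p of the 76 probes. The remaining Derl2 probe was below background on all arrays.

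Of the other degradation genes, Edem1, a lectin-like protein that selects misfolded glycoproteins, differed by −0.40 (SE 0.17, adjusted p = 0.299, limma) and Sel1l, the adaptor of the ligase complex, by −0.23 on both of its brightest probes. Another Sel1l probe gave −0.47 (adjusted p = 0.140). Syvn1 (HRD1), the ligase itself, differed by −0.09 (SE 0.17) and Edem2, a relative of Edem1, by 0.16 (SE 0.15), with −0.09, −0.04 and 0.03 on its other 3 probes. Selenos, a selenoprotein that recruits the p97 ATPase, read 12.04, 11.74 and 11.61 in adjacent livers and 12.13, 11.97 and 12.49 in tumours. Within animals the tumour read 0.09, 0.24 and 0.88 higher, and the difference of 0.40 (SE 0.16, adjusted p = 0.265, limma) was 0.16 on its other probe. Both Derl1 probes and the Derl3 probe were below background on all arrays.

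The translocon genes had a median difference of −0.30. Of 9 measured, 0 passed without the block and 1, Sec61b, was lower with it. Sec61b, a small subunit of the SEC61 channel, read 11.27, 11.12 and 10.33 in adjacent livers and 10.50, 10.56 and 9.94 in tumours. Each tumour was below its own adjacent liver, with log2 differences of −0.77, −0.57 and −0.39, while the adjacent liver of animal 1316 lay below the tumours of the other animals. The difference of −0.58 (SE 0.23) had an adjusted p = 0.266 without and 0.0294 with the block (limma). On the second probe it was −0.48 (adjusted p = 0.315, and 0.0700 after blocking).

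The remaining channel subunits, Sec61g and Sec61a1, the pore itself, differed by −0.39 (SE 0.20) and −0.18 (SE 0.16). Sec63, which recruits BiP to the channel, differed by −0.34, −0.40 and −0.38 on its 3 probes (adjusted p = 0.270, 0.148 and 0.150, limma), and Sec62, its partner, by 0.05 (SE 0.12). The genes Ssr1 to Ssr4 encode the translocon-associated protein complex. Ssr4 read 13.38, 13.27 and 13.29 in adjacent livers and 12.91, 13.07 and 12.74 in tumours, with all tumours below all adjacent livers. Its 2 probes differed by −0.41 and −0.46 (adjusted p = 0.134 and 0.135, limma). Ssr1 differed by −0.30 (SE 0.25), Ssr3 by −0.12 (SE 0.17) and Ssr2 by 0.07 (SE 0.18), and their tissues overlapped.

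Signals of some of these genes differed widely between animals. The mean log2 signal over the 39 genes spanned 9.90 to 10.39 in adjacent livers and, more narrowly, 9.80 to 10.07 in tumours. Creld2 read 11.31, 11.04 and 9.50 in the adjacent livers of animals 1293, 1309 and 1316 and 10.87, 10.67 and 9.76 in their tumours. Sdf2l1 read 10.40, 9.84 and 8.60 in adjacent livers and 9.69, 9.26 and 8.33 in tumours. In both genes the 2 arrays of animal 1316 were the lowest of the 6. The adjacent livers spanned 1.81 log2 units for Creld2 and 1.79 for Sdf2l1, against absolute tumour differences of 0.18 and 0.52.

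Animal 1316 had the lowest signal both among adjacent livers and among tumours for 22 of the 39 genes, or 56.4%, as it did for 10.8% of all genes. Among genes above background on at least 3 arrays the shares were 66.7% of the 33 members and 11.7% of all. The genes of the set are not independent of each other, and these shares are a description. They include Hspa5, Calr, Hyou1, Pdia3, Pdia4, Pdia5, Pdia6, Dnajc3, Ssr1, Sec61b and Sec61g. Herpud1, Xbp1, Ern1 and Ppp1r15a had their highest adjacent signal in animal 1316, and of these Ppp1r15a alone had its highest tumour signal there too, while Herpud1 had its lowest. For 28 of the 39 genes, or 71.8%, the range over the 3 animals' means exceeded the absolute difference between tumour and adjacent liver, as for 64.3% of all genes. Among genes above background on at least 3 arrays the shares were 75.8% of the members and 52.3% of all. A range over 3 animals and a difference between tissues are unlike measures, so these shares do not rank one against the other.

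The animal term of the block fit, a test added after these values had been seen, passed for Sdf2l1 (adjusted p = 0.0172) and Creld2 (adjusted p = 0.0312, limma F test), 2 of 39 genes against 0.136% of all genes and 0.301% of genes above background on at least 3 arrays. Without background correction it passed for 0 of the 39 and for 0 genes in all (adjusted p = 0.0988 and 0.165 for Sdf2l1 and Creld2), and with arrays scaled to their medians for Sdf2l1 alone. With that scaling animal 1316 was lowest in both tissues for 14 of the 39 genes, against 7.96% of all genes. Animal, dissection and array handling cannot be told apart here.

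**Figure D3:**
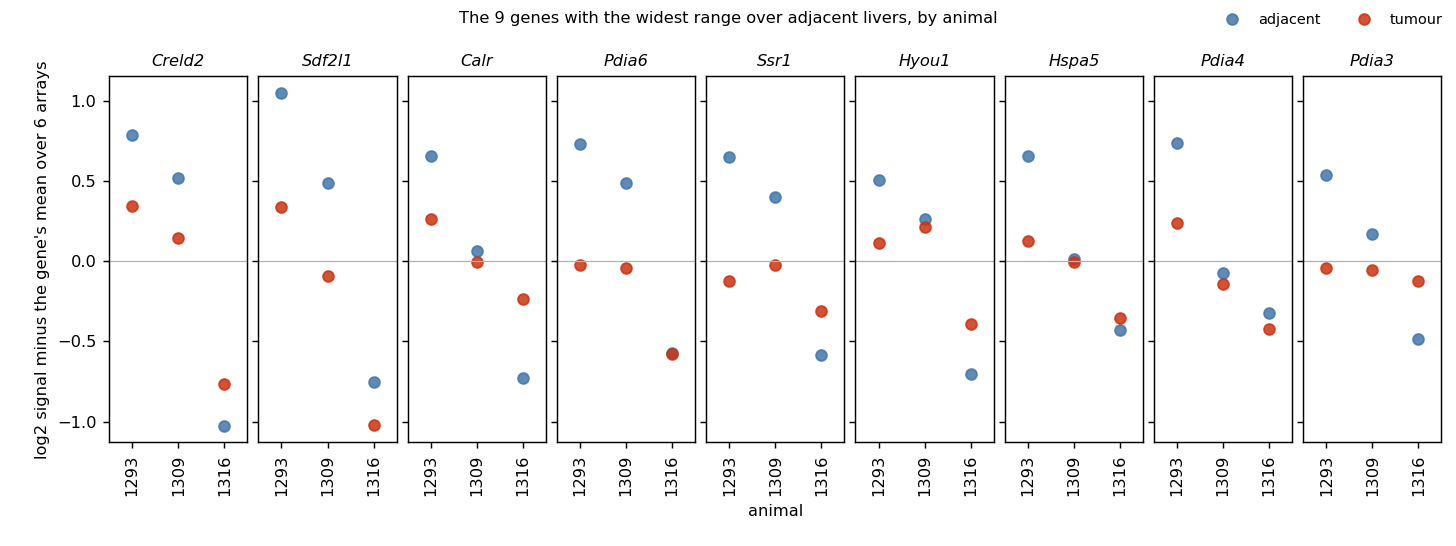
Log2 signal minus each gene's mean over 6 arrays (y axis) by animal, for the 9 genes with the widest range over adjacent livers, in adjacent liver (blue) and tumour (red). In all 9 genes both arrays of animal 1316 lie below the gene's mean, and the range over adjacent livers is 1.02 to 1.81 log2 units.

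Further genes of the ER pathways, listed outside the set, were read in the same fit. Of 25 other ER folding genes 0 passed (median −0.12, 7 with an unadjusted p under 0.05), and 4 were lower with the block. Those were Ppib, an ER prolyl isomerase, at −0.74 (SE 0.20), Ero1b, an oxidase that recharges disulfide isomerases, at −0.95 (SE 0.26), the isomerase gene Txndc5 at −0.63 (SE 0.20) and Fkbp11 at −0.55 (SE 0.28). The other Ero1b probe was below background. A dimmer probe of Txndc11, a thioredoxin-domain protein, passed as lower (adjusted p = 0.00533, limma), with measured means of 7.47 in adjacent liver and 6.74 in tumours, where it was above background on 0 arrays. The brightest Txndc11 probe differed by −0.05 and did not pass. Of 19 other degradation genes 0 passed (median −0.03), 1 had an unadjusted p under 0.05, and 0 passed with the block.

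Of 25 genes of targeting, glycosylation and signal peptidase 1 passed, Sec11c, a catalytic subunit of signal peptidase, which fell by 0.63 (SE 0.14, adjusted p = 0.0358, limma). Its values were 9.51, 9.78 and 9.37 in adjacent livers and 8.95, 9.07 and 8.76 in tumours, without overlap. With the block a second gene, the signal peptidase subunit gene Spcs3, was lower too. Of 17 other sensors and proteases of the response 1 passed, the stress kinase gene Mapk8 (JNK1), which fell by 0.73 (SE 0.17, adjusted p = 0.0338, limma) on 1 of 4 probes, the others lying between −0.19 and 0.04.

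The ATF4 arm, in contrast, held large increases. Of 13 genes 7 rose, 0 fell and the median difference was 0.62. All 13 were above background on at least 3 arrays, and 7.93% of all such genes passed as higher. This list, like the others, was chosen with earlier results of these data known. Nupr1, a stress-induced chromatin protein, read 7.54, 7.09 and 7.60 in adjacent livers and 12.11, 10.46 and 12.03 in tumours, a rise of 4.13 (SE 0.34, adjusted p = 2.85e-05, limma). Ddit4, an inhibitor of mTORC1, read 8.68, 8.15 and 7.19 in adjacent livers and 10.64, 10.47 and 10.80 in tumours, a rise of 2.63 (SE 0.28, adjusted p = 0.000237). Asns, asparagine synthetase, rose by 3.26 and, on its other 2 probes, read 1.99 and 0.53 higher, of which 1.99 passed. Ddit3 (CHOP) rose by 2.14 and 1.80 on its 2 probes. Atf3, Trib3 and Atf5 also passed, Atf3 being below background in all adjacent livers. Other Trib3 probes read 0.75 and 1.01 higher and did not pass (adjusted p = 0.156 and 0.0758, limma). Atf4 itself read 0.18 higher and did not pass (adjusted p = 0.754, limma). Of the 13 genes 3 had negative fitted differences, −0.21 for Cebpg, −0.08 for Chac1 and −0.01 for Ppp1r15b. ATF4 is also activated by kinases other than PERK, and the activity of PERK and of the other kinases was not measured. The difference between this list and the ER genes was not tested.

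**Figure D4:**
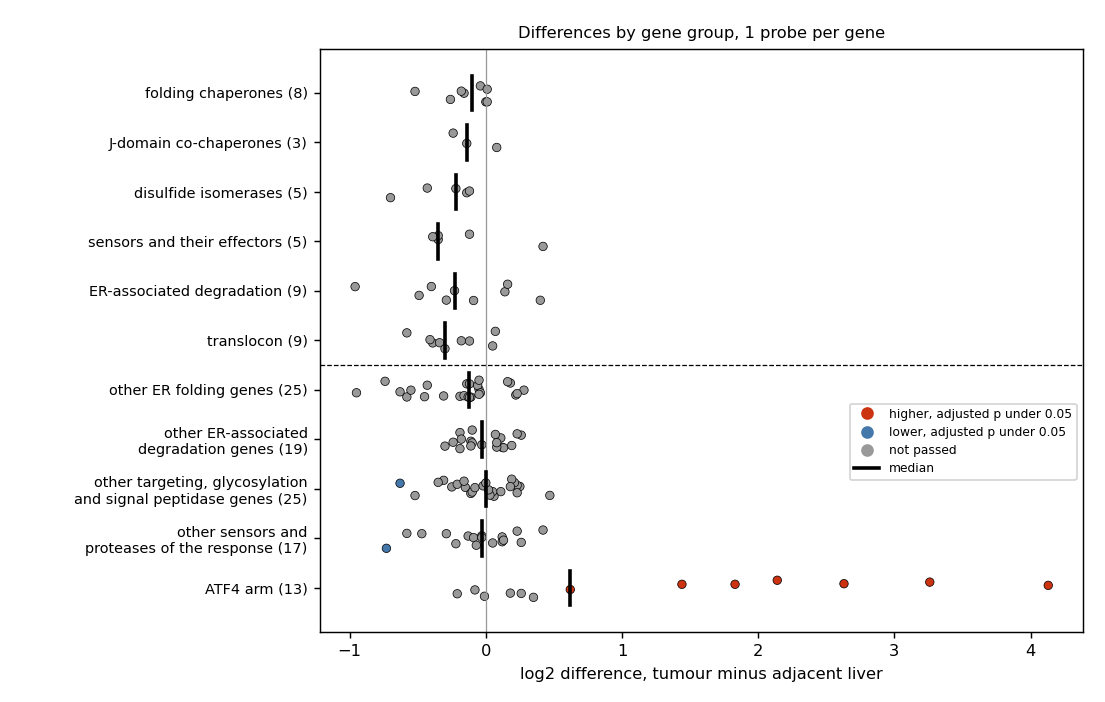
Log2 difference between tumours and adjacent liver (x axis), 1 point per gene, for 6 groups of ER genes (above the dashed line) and 5 further lists (below it), with the number of genes in parentheses and black bars at the medians. Grey points did not pass, and red and blue points passed as higher and lower: 0 in the 6 upper groups, 2 lower in the lower lists, and 7 higher in the ATF4 arm.

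Markers of other cells were read in the same arrays. All 6 macrophage markers had negative fitted differences and 0 passed (median −0.48, 3 with an unadjusted p under 0.05). In animals 1293 and 1316 all 6 were lower in the tumour, and in animal 1309 all 6 were higher. Their summed raw signal was 4051 to 5823 in adjacent livers and 3127 to 5100 in tumours. Of 6 plasma and B cell markers, the cells best known for a large ER, 0 passed, 4 were below background on all arrays, and the summed raw signal was 849 to 989 in adjacent livers and 810 to 1035 in tumours. Among 7 stellate markers Reln fell by 1.25 (SE 0.25, adjusted p = 0.0169, limma) on 1 of 5 probes, the others being below background. Acta2 read 1.17 higher on its brightest probe and passed with the block (adjusted p = 0.0164, and 0.146 without, limma). Its other probes lay between −0.21 and 0.47 and did not pass without the block. Col3a1 and Col1a1 read 0.51 and 0.42 higher and Lrat 0.56 lower, without passing in either fit. The second Col3a1 probe, below background, read 0.05 higher. Of the 7 stellate markers 4 had negative fitted differences (median −0.09). The summed signals were 3133 to 3939 and 2602 to 3439. Of 6 endothelial, 4 biliary, 5 T cell and 2 neutrophil markers 0 passed, and with the block 1 did, the endothelial marker Lyve1, which read 0.60 higher (adjusted p = 0.0217, limma). The endothelial markers Clec4g and Stab2 read 0.47 and 0.34 lower without passing in either fit. Of the 6 endothelial markers 4 had negative fitted differences (median −0.04). Of 6 hepatocyte markers Cps1 rose by 0.59 and the dim Alb probe fell by 0.84. The part of these markers in the differences of the ER genes was not tested.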

How the data were processed

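Total RNA was hybridised to Illumina bead arrays with a biotin label, per the labels. The authors deposited a table of linear probe intensities, which by their values were neither background-subtracted nor normalized between arrays. They also deposited a log2 table, which is quantile-normalized without background subtraction (sorted values within 0.00504 of the log2 of mean sorted intensities). GenomeStudio is named in the submitters' processing notes, with no version or role.

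Background correction used normexp (offset 50), followed by quantile normalization and log2 (limma 3.58.1, R 4.3.3, statmod 1.5.0). The offset understates differences of dim probes. An array's background level was set 3 SDs over the mode of its log2 signals, the SD being taken from signals under the mode, at 168.1 to 191.3 raw units. Of 45281 probes, 34885 had a single symbol in the platform annotation (0 changed by a GRCm38.p6 gene table), 18 had several and 10378 were not listed.

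Tumours and adjacent livers were compared over all probes with lmFit and eBayes, Benjamini-Hochberg adjustment and a threshold of 0.05. A gene was read from its brightest probe, and other probes are given beside it. The "at least" fold sets the brighter group's mean against the lowest signal above background on each dim array. Intervals come from the moderated limma fit. The code was tested on simulated data.

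Titles pair the arrays by animal. Deviations from the group means correlated at 0.41, 0.25 and 0.09 for animals 1293, 1309 and 1316 over 14045 probes, and at −0.27 to 0.03 between animals. The block rests on the shared animal. The arrays are of 3 separate animals. Without the block, p-values measure the spread between these within each tissue. With the block, they measure how the differences between tumour and own adjacent liver spread over the 3 animals.

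Members, lists and tests were chosen with earlier results of these data known. The rule for named genes was: all members may be named, with every array given for Hspa5, Xbp1, Ern1, Eif2ak3, Atf6 and any member that passed, and up to 4 genes that passed per further list. Since 0 members passed on their brightest probe, the others given in full were chosen after their values were seen, as were genes named for passing under the block. Protein sequences were not used here, and no slide block was fitted. A missing promoter match says only that these letters are not in the window.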

Additional observations from a re-analysis of the deposited data

How the results depend on the processing

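With 3 arrays per group the spread between arrays limits small differences, and probes below or near background limit Atf6, Canx, Manf, Derl1, Derl3 and Eif2ak3. Over 17 alternative settings 0 genes of the set were called higher in any. Genes called lower were 0 in the main analysis, 1 with an intensity trend in eBayes, 1 (Herpud1) with the animal as a random replicate block, 4 with it as a fixed replicate block, 0 to 3 when 1 array was left out, and 0 in the rest. Probes called lower, 2 in the main analysis, were 1 without background correction, 0 at an offset of 16, 1 with arrays scaled to their medians, 1 with the deposited log2 table, 1 with probes above background on at least 3 arrays, 8 with the replicate block, 5 with the random block, 0 to 7 when 1 array was left out, and 0 without both arrays of animal 1316. Genes that differed between animals, 2 in the main analysis, were 0 without background correction, 1 with median scaling and 0 with the deposited table (alternatives chosen after seeing the data). The block changed no other call of a member's brightest probe.

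Over all genes, calls higher and lower were 694 and 298 in the main analysis, 755 and 130 with median scaling, and 448 and 58 at an offset of 16. They were 868 and 593 with the block, and 919 and 659 without the tumour of animal 1309. The median of all genes stayed between −0.02 and 0.02 in every setting, and that of the set between −0.32 and −0.05.

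Of 657 values of single genes under the alternatives, 9 newly passed, 24 changed sign at 2 decimals, with adjusted p of at least 0.555, and the other 624 did neither. Hsp90b1, whose difference of 0.00 has no sign at 2 decimals, is among the latter and went both ways, from −0.12 to 0.11 when 1 array was left out. Leaving out 1 array also turned the sign of these genes at least once, with ranges of −0.35 to 0.34 for Calr, −0.05 to 0.03 for Canx, −0.74 to 0.16 for Creld2, −0.01 to 0.38 for Derl3, −0.31 to 0.09 for Dnajb9, −0.41 to 0.13 for Hspa5, −0.41 to 0.20 for Hyou1, −0.42 to 0.09 for Pdia3, −0.44 to 0.09 for Pdia4, −0.15 to 0.19 for Ssr2 and −0.25 to 0.05 for Syvn1. Leaving out both arrays of animal 1316 turned Calr (−0.23), Derl3 (−0.04) and Ssr2 (−0.08), median scaling Hyou1 (0.06), and averaging probes Ssr3 (0.04). The cause of these turns was not tested. A slide block could not be run.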
